A study of Mus musculus with 12 samples.

Results

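The genes of thromboxane, lipoxygenase and leukotriene metabolism were followed through PreMegEs, the bone marrow progenitors that can give rise to megakaryocytes and erythroid cells. The list held 10 of the 41128 genes in the count table, taken by their symbols: Pla2g4a, Ptgs1, Tbxas1, Tbxa2r, Alox5, Alox5ap, Alox12, Ltc4s, Lta4h and Cysltr1. The RNA-Seq libraries were made from PreMegEs of the bone marrow of C57BL/6 mice aged 12 to 16 weeks, with 3 libraries in each of 4 groups and cells of 3 mice pooled in each library. WT PreMegEs came from wild type mice. P2+ and P2- PreMegEs came from Runx1 P1-GFP::P2-hCD4/+ mice, in which 1 Runx1 allele carries GFP at the distal promoter P1 and truncated human CD4 at the proximal promoter P2, and were sorted for the presence or absence of hCD4. Both are therefore heterozygous for the reporter allele, which WT PreMegEs are not, so their comparisons with WT carry the genotype as well as the sort. KO PreMegEs came from mice without RUNX1C, the isoform made from P1, and were not divided by P2 activity. The paper gives its RUNX1C knockout mice as P1-GFP/GFP, homozygous for an allele with GFP at P1.

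Eicosanoids are signalling lipids made from arachidonic acid. Cytosolic phospholipase A2, encoded by Pla2g4a, frees arachidonic acid from membranes. Cyclooxygenase 1 (Ptgs1) and thromboxane synthase (Tbxas1) turn it into thromboxane A2, which platelets release and sense through the thromboxane receptor (Tbxa2r). In the other branch 5-lipoxygenase (Alox5), helped by its activating protein (Alox5ap), makes leukotriene A4, which Lta4h converts to leukotriene B4 and Ltc4s to leukotriene C4, and Cysltr1 is a receptor of the cysteinyl leukotrienes. Alox12 encodes the 12-lipoxygenase of platelets. Platelets are shed by megakaryocytes, so that several of these genes are known from the megakaryocyte lineage.

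The total count per library was between 10726098 and 14445026, and 3 counts, the limit taken for a count of 0, were between 0.207 and 0.288 CPM, the usual scaling of counts to library size. Levels are given in CPM adjusted by TMM factors over the 12 libraries, and the limit of 3 counts covers counting error only. Kit and Slamf1 of the PreMegE gate and the progenitor factors Gata1 and Gata2 were detected in every library. Runx1 counts do not separate the 2 promoters, and its mean of 360 CPM in KO against 369 CPM in WT PreMegEs is no check of the RUNX1C deletion. The libraries numbered 2 of P2+ and P2- stood apart by the immediate early gene Fos, at 903 and 1330 CPM, and counts that rest on them are also given without them. In bulk libraries fewer cells of a type and less RNA per cell cannot be told apart.

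Between P2+ and P2- PreMegEs all 10 genes passed the filter on low counts and 6 were called, at an adjusted p under 0.05 and at least 2-fold, and all 6 were higher in P2+ (edgeR's quasi-likelihood test with Benjamini-Hochberg adjustment over all genes tested). They were Pla2g4a, the 3 thromboxane genes, Alox5ap and Cysltr1. Of all 12836 genes tested, 9.54% were called higher in P2+. Without the minimum fold the count remained 6, where 20.1% of all genes were higher and 17.0% lower. All libraries of P2+ lay above all of P2- for 7 of the 10 genes, against 25.5% of all genes, and the median log2 fold change over the 10 was 1.57, against -0.02 over all genes. Cysltr1 reached 1 CPM in no P2- library and so was tested through P2+ alone, which fixed its direction, and without it 5 of 9 were called, the libraries did not overlap for 6 and the median was 1.53. Without the libraries numbered 2, 7 of the genes were called, with Alox5 and Ltc4s added and Cysltr1 no longer tested. The fit above does not pair the libraries. In a fit that pairs P2+ and P2- libraries by their numbers, 7 were called, with Alox5 added.

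Over all 12 libraries, Ptgs1, Tbxas1, Tbxa2r and Alox5ap followed one order, with every P2+ library above every WT library, every WT library above every KO library and every KO library above every P2- library. That order held for 4 of the 10 genes and for 2.08% of the 13272 genes that passed the filter over the 12 libraries. The order was read from these same genes and is a description. With the groups ranked by each gene's own means, neighbouring groups overlapped throughout for Lta4h, Ltc4s and Alox12.

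**Figure D1:**
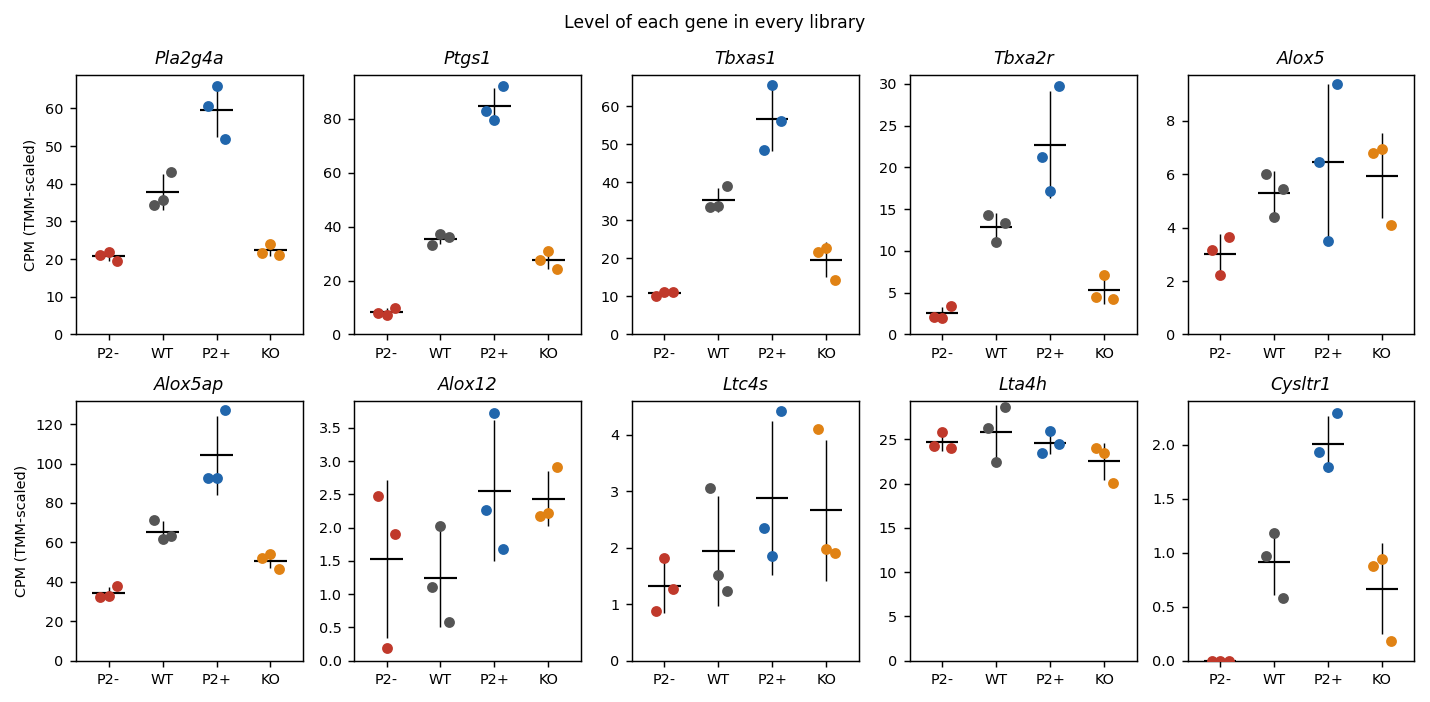
TMM-scaled CPM of the 10 genes in each library of P2-, WT, P2+ and KO PreMegEs, on linear axes that start at 0. Points are libraries, horizontal bars the group means and vertical bars the SD (n = 3). Ptgs1, Tbxas1, Tbxa2r and Alox5ap were highest in P2+ and lowest in P2-, while Lta4h lay between 20.1 and 28.6 CPM in all 12 libraries.

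Pla2g4a (ENSMUSG00000056220, chr1:149829618-149961290 of GRCm38, minus strand), which encodes the enzyme that supplies arachidonic acid, stood at 21.0, 21.8 and 19.5 CPM in P2-, 34.4, 35.6 and 43.2 CPM in WT, 60.6, 66.0 and 51.9 CPM in P2+ and 21.7, 24.0 and 21.2 CPM in KO PreMegEs. The P2+ libraries lay above the WT libraries and these above the rest, while KO and P2- libraries overlapped. Its log2 fold change was 1.53 ± 0.12 (SE) for P2+ against P2- (adjusted p = 2.6e-05), 0.66 ± 0.12 for P2+ against WT (adjusted p = 0.00461), -0.86 ± 0.13 for P2- against WT (adjusted p = 0.00137) and -0.77 ± 0.12 for KO against WT (adjusted p = 0.000195).

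Ptgs1 (ENSMUSG00000047250, chr2:36230426-36252272, plus strand), the gene of the constitutive cyclooxygenase, had the largest fitted fold between P2+ and P2- of the genes with counts in both. It stood at 8.04, 7.39 and 9.88 CPM in P2-, 33.2, 37.2 and 36.0 CPM in WT, 82.8, 79.6 and 92.1 CPM in P2+ and 27.5, 30.9 and 24.4 CPM in KO PreMegEs. No 2 groups overlapped. The log2 fold change was 3.34 ± 0.14 (SE) for P2+ against P2- (adjusted p = 1.54e-06). Ptgs1 was the 1 gene of the list called between P2+ and WT, at 1.26 ± 0.09 (adjusted p = 1.2e-05), and it was also called between P2- and WT, at -2.06 ± 0.15 (adjusted p = 2.34e-05). Between KO and WT the difference was smaller, at -0.37 ± 0.11 (adjusted p = 0.0362), and it missed the threshold in 5 of 12 alternatives, with adjusted p up to 0.181 without KO replicate 3. The annotation places 148 exonic bases of Ptgs1 opposite Gm43621, a gene of the other strand.

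Tbxas1 (ENSMUSG00000029925, chr6:38875404-39084585, plus strand), the gene of thromboxane synthase, stood at 10.2, 11.3 and 11.2 CPM in P2-, 33.5, 33.8 and 39.1 CPM in WT, 48.5, 65.6 and 56.1 CPM in P2+ and 21.7, 22.8 and 14.4 CPM in KO PreMegEs, again with no overlap of groups. It was higher in P2+ than in P2- by a log2 fold change of 2.39 ± 0.14 (SE, adjusted p = 5.95e-06) and than in WT by 0.68 ± 0.12 (adjusted p = 0.0043). It was lower than in WT in P2-, at -1.70 ± 0.13 (adjusted p = 3.38e-05), and in KO, at -0.86 ± 0.15 (adjusted p = 0.000474). The annotation places 144 exonic bases opposite an antisense gene, Gm42962.

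Tbxa2r (ENSMUSG00000034881, chr10:81328731-81335172, plus strand), the gene of the receptor through which thromboxane A2 acts on platelets, stood at 2.07, 2.02 and 3.46 CPM in P2-, 14.3, 11.1 and 13.3 CPM in WT, 21.2, 17.2 and 29.7 CPM in P2+ and 4.54, 7.10 and 4.19 CPM in KO PreMegEs. The groups did not overlap. The log2 fold change was 3.17 ± 0.29 (SE) for P2+ against P2- (adjusted p = 6.29e-05) and -2.34 ± 0.26 for P2- against WT (adjusted p = 0.000234). Tbxa2r was the 1 gene of the list called between KO and WT, at -1.29 ± 0.22 (adjusted p = 0.000473). Between P2+ and WT the value was 0.82 ± 0.20 (adjusted p = 0.0202), which was lost without WT replicate 2 (adjusted p = 0.087), WT replicate 3 (adjusted p = 0.0592) or P2+ replicate 3 (log2 fold change 0.57, adjusted p = 0.0728).

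Alox5ap (ENSMUSG00000060063, chr5:149264767-149288153, plus strand), the gene of the membrane protein that presents arachidonic acid to 5-lipoxygenase, was the most abundant of the 10 genes per exonic length in every group. It stood at 32.2, 32.7 and 37.8 CPM in P2-, 71.4, 61.5 and 63.4 CPM in WT, 92.5, 92.8 and 127 CPM in P2+ and 51.9, 54.0 and 46.4 CPM in KO PreMegEs, with no overlap of groups. The log2 fold change was 1.62 ± 0.14 (SE) for P2+ against P2- (adjusted p = 4.66e-05), 0.67 ± 0.12 for P2+ against WT (adjusted p = 0.00446) and -0.93 ± 0.10 for P2- against WT (adjusted p = 0.000201). For KO against WT it was -0.38 ± 0.09 (adjusted p = 0.00908), which was lost without KO replicate 3 (adjusted p = 0.0621) and in a fit of all 12 libraries (adjusted p = 0.0744). The annotation places 189 exonic bases of Alox5ap opposite an antisense gene, Gm19719.

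Alox5 (ENSMUSG00000025701, chr6:116410077-116461178, minus strand), the gene of the enzyme that Alox5ap assists, was much lower. It stood at 3.18, 2.21 and 3.67 CPM in P2-, 6.03, 4.39 and 5.46 CPM in WT, 6.45, 3.52 and 9.38 CPM in P2+ and 6.81, 6.93 and 4.10 CPM in KO PreMegEs. All P2- libraries lay below all WT and KO libraries, but P2+ overlapped with P2- through its replicate 2. The log2 fold change for P2+ against P2- was 1.09 ± 0.38 (SE, 95% interval 0.23 to 1.96, adjusted p = 0.0502). The replicate numbers pair the P2+ and P2- libraries, and with the replicate block Alox5 was called, at 1.06 (adjusted p = 0.00688), as it was in 7 of 13 alternatives in all, one of them without P2+ replicate 2 (1.40, adjusted p = 0.00957). Without P2+ replicate 3 it was 0.73 (adjusted p = 0.198), and without P2- replicate 2 it was 0.92 (adjusted p = 0.118). Against WT, P2- was at -0.80 ± 0.28 (adjusted p = 0.0816), P2+ at 0.28 ± 0.33 (adjusted p = 0.625) and KO at 0.16 ± 0.26 (adjusted p = 0.757).

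Downstream of leukotriene A4, Lta4h (ENSMUSG00000015889, chr10:93453411-93484875, plus strand) stood at 24.2, 25.8 and 24.0 CPM in P2-, 26.3, 22.4 and 28.6 CPM in WT, 23.4, 25.9 and 24.5 CPM in P2+ and 24.0, 23.4 and 20.1 CPM in KO PreMegEs. The groups overlapped throughout. For P2+ against P2- the log2 fold change was 0.01 ± 0.11 (SE, adjusted p = 0.956), with a 95% interval from -0.24 to 0.26, which leaves no room for a 2-fold change in either direction. The intervals were -0.35 to 0.23 for P2+ against WT, -0.34 to 0.22 for P2- against WT and -0.47 to 0.06 for KO against WT.

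Ltc4s (ENSMUSG00000020377, chr11:50236461-50238616, minus strand), the gene of the synthase of the cysteinyl branch, had only 11 to 58 counts per library. It stood at 0.876, 1.82 and 1.27 CPM in P2-, 3.05, 1.52 and 1.24 CPM in WT, 2.35, 1.86 and 4.42 CPM in P2+ and 4.10, 1.97 and 1.91 CPM in KO PreMegEs. The P2+ libraries lay above the P2- libraries by a narrow margin, at a log2 fold change of 1.14 ± 0.46 (SE, 95% interval 0.09 to 2.18, adjusted p = 0.0834), and no comparison passed. It rested on single libraries, at 1.39 (adjusted p = 0.0487) without P2+ replicate 2, 0.69 (adjusted p = 0.305) without P2+ replicate 3 and 0.91 (adjusted p = 0.213) without P2- replicate 1. Its counts are uncertain, since 268 of its exonic bases lie opposite the antisense gene Gm26542, which had 9 to 47 counts per library, and the sources do not state whether the counting used the strand.

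Cysltr1 (ENSMUSG00000052821, chrX:106574346-106603679, minus strand), a receptor gene, was not detected in P2- PreMegEs, with 0 counts in each of the 3 libraries. It stood at 0.970, 1.18 and 0.583 CPM in WT, 1.93, 1.79 and 2.29 CPM in P2+ and 0.873, 0.941 and 0.182 CPM in KO PreMegEs, from at most 30 counts in a library. Every P2+ library lay above every WT library, and WT and KO overlapped. The P2+ mean of 2.0 CPM was at least 8.13-fold the mean limit of 0.246 CPM that 3 counts per library allow in P2-. The WT mean was at least 3.70-fold that limit. In edgeR's quasi-likelihood test the adjusted p for P2+ against P2- was 0.00086, for a direction that the filter had fixed. Cysltr1 passed the filter of 1 CPM in 3 libraries through P2+ alone and was not tested for P2- or KO against WT. Between P2+ and WT the log2 fold change was 1.14 ± 0.42 (SE, adjusted p = 0.0937).

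Alox12 (ENSMUSG00000000320, chr11:70241457-70255353, minus strand), the platelet lipoxygenase gene, was low and overlapped between P2- and P2+ PreMegEs. It stood at 2.47, 0.192 and 1.91 CPM in P2-, 1.11, 2.03 and 0.583 CPM in WT, 2.26, 3.73 and 1.68 CPM in P2+ and 2.18, 2.22 and 2.91 CPM in KO PreMegEs. The P2- libraries alone spanned from 2 to 31 counts. No comparison passed, with log2 fold changes of 0.73 ± 0.65 (SE) for P2+ against P2- (95% interval -0.74 to 2.21, adjusted p = 0.416) and 0.98 ± 0.45 for KO against WT (adjusted p = 0.168), where each KO library lay above each WT library.

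On the scale of RPKM, which divides CPM by exonic length in kilobases and so allows levels of different genes to be compared, Alox5ap stood far above Alox5, at 73.4 ± 14.1 against 1.57 ± 0.714 RPKM in P2+ and at 24.1 ± 2.21 against 0.736 ± 0.181 RPKM in P2- PreMegEs (SD, n = 3). In P2+ PreMegEs Alox5ap was followed by Ptgs1 (21.8 ± 1.68 RPKM), Tbxa2r (11.8 ± 3.34 RPKM), Pla2g4a (9.31 ± 1.12 RPKM) and Tbxas1 (6.24 ± 0.94 RPKM). In P2- PreMegEs the second place was held by Lta4h (4.04 ± 0.165 RPKM), above Pla2g4a (3.25 ± 0.179 RPKM) and Ptgs1 (2.17 ± 0.332 RPKM). The libraries of Tbxa2r and Pla2g4a overlapped in P2+ and so did not set their order.

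**Figure D2:**
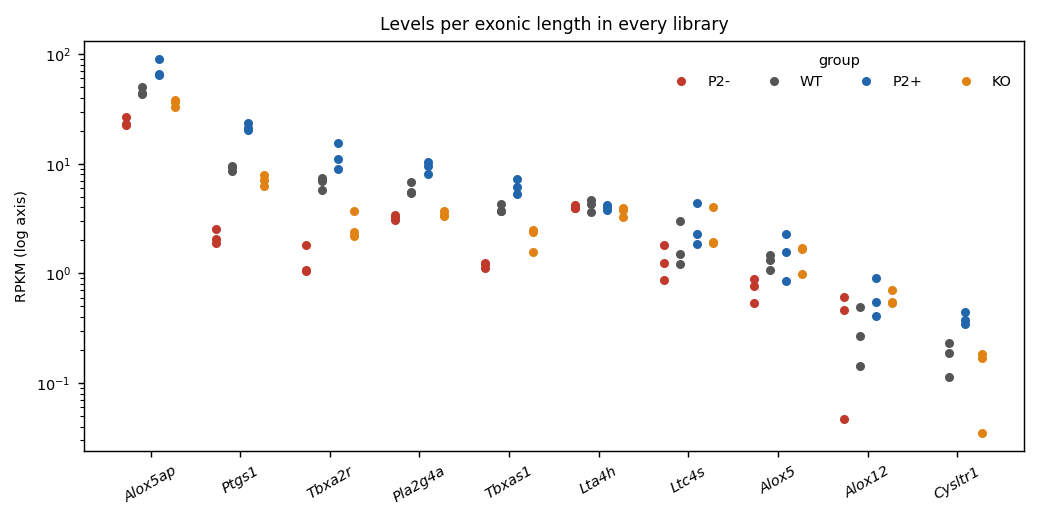
RPKM of the 10 genes in every library on a log axis, with genes in the order of their P2+ mean and 3 points for each of P2-, WT, P2+ and KO from left to right. The P2- libraries of Cysltr1, at 0 counts, are not drawn. The mean of Alox5ap was the highest and that of Cysltr1 the lowest in every group.

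WT PreMegEs held an intermediate position for the 5 genes with differences in all comparisons. The WT mean stood 53.6% of the way from P2- to P2+ for Tbxas1, 51.4% for Tbxa2r, 44.7% for Alox5ap, 43.8% for Pla2g4a and 35.3% for Ptgs1. The KO mean stood nearer to P2-, at 25.1% for Ptgs1, 23.6% for Alox5ap, 18.9% for Tbxas1, 13.7% for Tbxa2r and 3.83% for Pla2g4a. The choice of these 5 genes fixed that WT lay between P2- and P2+ and KO below WT. For Alox5, Alox12 and Ltc4s, which did not pass, the KO mean stood nearer to P2+, at 85.3%, 88.8% and 86.1%.

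Between P2+ and WT PreMegEs 5 of the 10 genes passed an adjusted p under 0.05, all higher in P2+, where 9.45% of all genes were higher and 7.07% lower. The 1 gene that also reached 2-fold, Ptgs1, compares with 2.16% of all genes. Between P2- and WT 9 of the 10 were tested and 5 passed, all lower in P2-, where 9.60% of all genes were lower and 6.85% higher, and 3 of them (Ptgs1, Tbxas1 and Tbxa2r) reached 2-fold, against 4.10% of all genes. The median log2 fold change of the genes tested was 0.68 in the first and -0.86 in the second comparison, against 0 and 0.01 over all genes. These comparisons share the WT libraries.

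Between KO and WT PreMegEs 9 of the 10 genes were tested, and 5 passed at an adjusted p under 0.05, all lower in KO, where 8.76% of all genes were lower and 6.18% higher. They were Pla2g4a, Ptgs1, Tbxas1, Tbxa2r and Alox5ap, and 1 of them, Tbxa2r, reached 2-fold, against 2.67% of all genes. The median over the 9 was -0.37, against 0 over all genes. The count fell to 3 without KO replicate 3 and in a fit of all 12 libraries, where Ptgs1 and Alox5ap no longer passed. The sources do not state whether the KO libraries were prepared together with the WT libraries, and a difference in preparation and the genotype cannot be told apart.

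**Figure D3:**
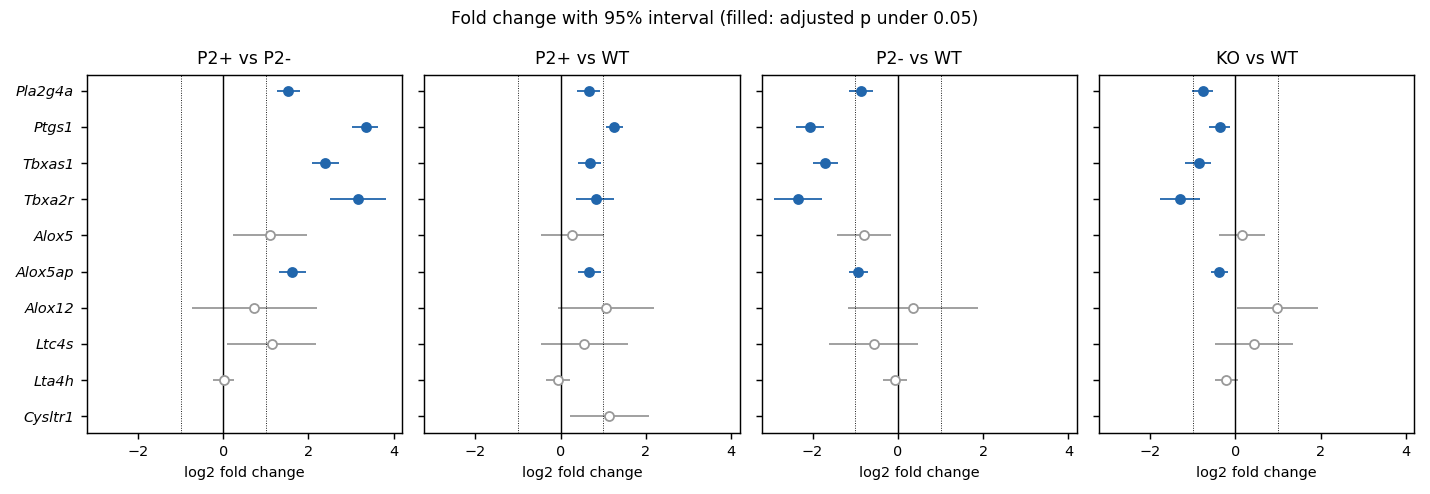
Log2 fold change of the 10 genes in the 4 comparisons, with 95% intervals from edgeR's quasi-likelihood fit. Filled points had an adjusted p under 0.05, dotted lines mark 2-fold, and Cysltr1 is not drawn where it was not tested or where 1 group had no counts. Pla2g4a, Ptgs1, Tbxas1, Tbxa2r and Alox5ap had filled points in each of the 4 comparisons, and the point of Lta4h lay near 0 in all 4.

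The 250 bases before the RefSeq transcription starts (GRCm38.p6) were read for 8 of the 10 genes, as 10 windows. Both strands were searched for the RUNX motif, written as TGTGGT or in its other common form as TGCGGT. The GATA motif was searched as AGATAA and in the same way also as TGATAA. The motif of ETS factors was searched as GGAAGT. A RUNX match was found in 1 of the 10 windows, that of Ltc4s, against 18.6% of the windows of all 32851 promoters. A GATA match was found in 1 window, against 16.6%, and an ETS match in 3 windows, against 19.7%. The windows of 3 genes that were higher in P2+ and of Lta4h, which was not, are shown with the matches in capitals, each free of annotated exons and written 5′ to 3′ along the gene. The window shown for Pla2g4a lies before a start inside the gene. Its window before the outer start of the gene, not shown, held none of these motifs. Those of Tbxa2r and Lta4h also hold none.
Ptgs1, chr2:36230176-36230425, plus strand: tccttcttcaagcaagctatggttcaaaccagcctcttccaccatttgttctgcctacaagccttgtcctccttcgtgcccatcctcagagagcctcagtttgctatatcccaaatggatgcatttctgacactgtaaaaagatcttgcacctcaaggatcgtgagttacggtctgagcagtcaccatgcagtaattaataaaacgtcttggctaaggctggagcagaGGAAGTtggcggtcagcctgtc
Pla2g4a, chr1:149922440-149922689, minus strand: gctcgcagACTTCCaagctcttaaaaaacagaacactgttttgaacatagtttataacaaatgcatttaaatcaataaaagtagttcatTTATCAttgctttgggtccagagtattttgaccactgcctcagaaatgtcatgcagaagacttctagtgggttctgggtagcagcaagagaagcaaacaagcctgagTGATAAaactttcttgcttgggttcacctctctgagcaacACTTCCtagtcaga
Tbxa2r, chr10:81328453-81328702, plus strand: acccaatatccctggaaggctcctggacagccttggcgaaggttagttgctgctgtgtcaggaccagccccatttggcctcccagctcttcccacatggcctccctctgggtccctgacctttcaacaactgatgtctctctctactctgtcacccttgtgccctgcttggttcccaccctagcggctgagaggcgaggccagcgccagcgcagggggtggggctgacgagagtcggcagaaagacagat
Lta4h, chr10:93453146-93453395, plus strand: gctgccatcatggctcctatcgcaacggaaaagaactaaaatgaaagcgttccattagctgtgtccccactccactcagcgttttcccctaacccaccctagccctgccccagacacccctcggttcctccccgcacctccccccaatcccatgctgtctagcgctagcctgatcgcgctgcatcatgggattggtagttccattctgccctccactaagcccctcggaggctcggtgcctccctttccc
In the window of Ptgs1 the ETS match began 22 bases before the start. In the window shown for Pla2g4a the GATA matches began 161 and 54 bases before the start. The ETS matches there began 242 and 14 bases before it, and none of the matches overlapped. A match describes these letters and not the binding of a factor.

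Of 59 other genes of eicosanoid metabolism and signalling, 30 were tested between P2+ and P2- PreMegEs. In P2+, 11 were higher and 6 lower at an adjusted p under 0.05, against 20.1% and 17.0% of all genes, so that the lower ones were near the background share. At least 2-fold were 6 higher, against 9.54% of all genes, and 2 lower, against 402 of all 12836 genes. The median log2 fold change of the 30 was 0.12. Ptger3, a prostaglandin E2 receptor gene known from platelets, rose from 30.1 ± 3.91 CPM in P2- to 99.5 ± 5.51 CPM in P2+ (SD, n = 3), a log2 fold change of 1.73 ± 0.11 (SE, adjusted p = 8.31e-06). Hpgds, the gene of a prostaglandin D2 synthase, was at 0.547 ± 0.37 CPM in P2- and 3.72 ± 0.185 CPM in P2+ (log2 fold change 2.81, adjusted p = 0.00284). No P2- library reached 1 CPM for Hpgds, so that the filter fixed its direction. Without Hpgds, 10 of 29 genes were higher and 6 lower at an adjusted p under 0.05. At least 2-fold were then 5 higher and 2 lower, and the median was 0.05. Pla2g15, a lysosomal phospholipase gene, was higher in P2+ by 1.49 (adjusted p = 9.21e-05), and Pla2g12a, of a secreted phospholipase, was lower by a log2 fold change of -1.58 (adjusted p = 6.18e-05).

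Among the receptor genes of the wider list, Cysltr2, the other cysteinyl leukotriene receptor gene, was at 4.83 ± 2.05 CPM in P2- and 12.7 ± 2.32 CPM in P2+ (log2 fold change 1.40, adjusted p = 0.00725), and Ltb4r1, of a leukotriene B4 receptor, at 4.11 ± 0.197 and 6.50 ± 1.14 CPM (0.67, adjusted p = 0.0471). Ptger2 was higher in P2+ than in P2- (2.52, adjusted p = 0.0197) and lower in KO than in WT (-1.95, adjusted p = 0.00955), from 11 counts at most in a KO library, where none reached 1 CPM and the filter fixed the direction. Ptger4 did not pass between P2+ and P2- (0.03, adjusted p = 0.857) and was higher in KO than in WT (0.61, adjusted p = 0.00187). Ptgir, the prostacyclin receptor gene, was higher in KO than in WT (1.51, adjusted p = 0.0471), from 0.931 ± 0.34 to 2.71 ± 1.70 CPM. Ptgs2, the gene of the inducible cyclooxygenase, was not tested, with 0 counts in each KO library. Its highest values, 5.87 CPM in P2+ and 2.79 CPM in P2-, were in the libraries numbered 2 that stood apart by Fos, and the other P2+ libraries were at 0.0838 and 0.458 CPM and the other P2- libraries at 0. In KO against WT, 7 of the 30 genes tested were higher and 5 lower at an adjusted p under 0.05, with a median of 0.11. Without Ptger2, 7 of 29 were higher and 4 lower, with a median of 0.15. Of all genes, 6.18% were higher and 8.76% lower. Of the 30 tested between P2+ and WT, 7 were higher and 3 lower (median 0.28), against 9.45% and 7.07% of all genes. Of the 28 tested between P2- and WT, 2 were higher and 6 lower (median 0.06), against 6.85% and 9.60%.

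**Figure D4:**
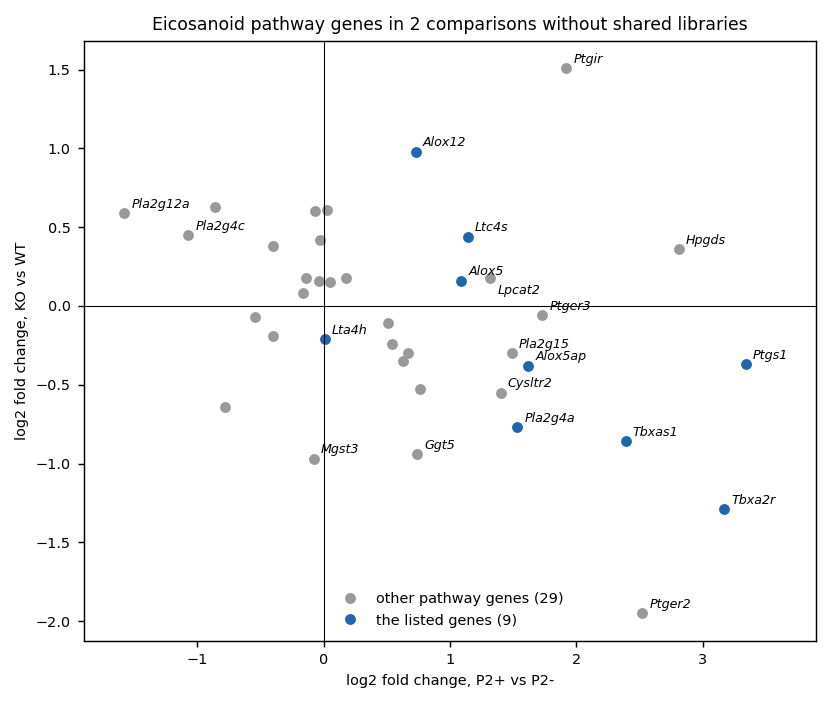
Log2 fold change of KO against WT plotted against that of P2+ against P2-, 2 comparisons that share no libraries, for 9 of the 10 genes and 29 other eicosanoid genes tested in both. Blue points are the genes of the list and grey points the others. Ptgs1, Tbxas1, Tbxa2r, Pla2g4a and Alox5ap lay at the lower right, higher in P2+ than in P2- and lower in KO than in WT, and Ptgir at the upper right.

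Markers of other cells also differed between the groups. The summed level of 18 megakaryocyte markers was 347 to 446 CPM in P2- and 799 to 855 CPM in KO PreMegEs. It was 972 to 1130 CPM in WT and 1530 to 2260 CPM in P2+, the order of the thromboxane genes. Itga2b of that list followed this order, at means of 51, 115, 156 and 282 CPM. Other markers did not, with Pf4 at 73.5 CPM in WT and 71.9 CPM in P2+ and Gp5 at 246 CPM in KO and 187 CPM in WT. Of the 18, 14 were detected in all P2- libraries and 16 in all P2+ libraries. The 15 neutrophil and monocyte markers summed to 69.1 to 128 CPM in P2-, 96.4 to 149 CPM in KO, 185 to 326 CPM in WT and 345 to 489 CPM in P2+. The means of Mpo in the same groups followed that order, at 11.3, 27.1, 80.7 and 104 CPM. So did those of Lyz2, at 42.8, 55.3, 96.3 and 184 CPM. Elane of that list did not, at means of 3.47, 1.47, 7.53 and 4.58 CPM. The summed erythroid markers ran the other way, with 15 of the 16 in the table. They summed to 5960 to 6770 CPM in P2-, 5720 to 6430 CPM in KO, 3410 to 3900 CPM in WT and 1310 to 1530 CPM in P2+. The largest part was Aqp1, at means of 2760 CPM in P2- and 477 CPM in P2+. Klf1 was at means of 389, 372, 229 and 58.8 CPM in P2-, KO, WT and P2+, and Epor at 108, 114, 77.5 and 34.7 CPM. Other markers did not fall, with Slc4a1 at 19.4 CPM in P2- and 27.2 CPM in P2+. Alas2 was at 1.26 and 2.38 CPM and Hbb-bt at 1.98 and 3.65 CPM. The 11 mast cell and basophil markers lay between 375 and 425 CPM in P2-, 420 and 508 CPM in KO, 225 and 256 CPM in WT and 183 and 310 CPM in P2+, a sum carried by Il1rl1. Without Il1rl1 the other 10 summed to 31.8 to 37.6 CPM in P2- and 54.2 to 74.9 CPM in KO. They summed to 30.9 to 55.2 CPM in WT and 100 to 157 CPM in P2+. This sum was highest in P2+ like the thromboxane genes, but KO lay mostly above WT, and WT and P2- overlapped. Ms4a2 was at means of 9.20 CPM in P2-, 28.2 CPM in KO, 17 CPM in WT and 70.6 CPM in P2+. Cpa3 was at 16.7, 28.2, 14.2 and 39.1 CPM in the same groups. Fcer1a was at 0 in all P2- libraries and at means of 3.76 CPM in WT and 1.91 CPM in P2+. The 12 lymphoid markers summed to at most 100 CPM in any library, and Cd3e was at 0 in all P2- and P2+ libraries. The part of these cells in the results above was not tested.

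Genes with profiles most like those of the list were found by Pearson's r of log2 CPM over the 12 libraries, which fall into the 4 groups and share their differences, among about 10000 genes whose highest group mean reached 10 CPM. For Ptgs1 these included Ncoa3 and Tnfsf14, each at 0.991. For Tbxa2r they were Sh2d3c (0.992), Fli1 (0.988), which encodes an ETS factor of megakaryocytes, and Itih5 (0.987). For Tbxas1 they were Bin2 (0.986), Arhgef40 (0.982) and Hdac5 (0.981), for Alox5ap Emilin1 (0.992), Nwd1 (0.989) and Arhgap31 (0.986), and for Pla2g4a D630045J12Rik (0.983), Obsl1 (0.981) and Hivep2 (0.979). The values for the low or little varying genes were smaller, with the first gene at 0.931 for Alox5, 0.911 for Lta4h, 0.874 for Alox12 and 0.863 for Ltc4s. For Cysltr1 it was Nol4l, at 0.967.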

How the data were processed

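PreMegE libraries of WT, P2+, P2- and KO mice were analysed, 3 per group, and grouped by their labels. The authors prepared strand-specific poly(A) libraries, aligned paired reads to GRCm38 (Bowtie2) and assigned them to Ensembl genes (featureCounts). They deposited raw integer counts for each gene. Per the labels, SAMtools 0.1.19, R 3.1.0 and edgeR 3.8.5 were also used. The use of strand and the treatment of multiply aligned reads are not given in the sources used here.

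Counts were tested with edgeR 4.0.16 in R 4.3.3 (quasi-likelihood F-test, TMM scaling, group only) over genes that reached 1 CPM in 3 or more of the 6 libraries, with Benjamini-Hochberg adjustment over all genes tested. Genes were called at an adjusted p under 0.05 and at least 2-fold. The SE is the log2 fold change divided by the root of F. RPKM used merged exon lengths of GENCODE vM21, in which 40254 of the 41128 genes were matched. RefSeq windows came from GRCm38.p6. The script was tested on simulated data. Each library is a pool of 3 mice, and p-values measure the spread between such pools.

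Deviations from the group means of same-numbered P2+ and P2- libraries correlated at 0.402, 0.590 and 0.432, so that the numbers pair these libraries. The blocked value is given where it changes a call.

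The 10 genes and all lists were chosen with earlier results of these data known. All 10 are named, and of the 59 other pathway genes those with the largest called folds and Ptgs2, Cysltr2, Ltb4r1, Hpgds and Ptger4; the 3 genes most like each were those with the highest r, though some items are not reported here. Alternatives were RLE scaling, no filter, DESeq2 1.42.0, exactTest, the replicate block, a fit of all 12 libraries, each library left out and the libraries numbered 2 left out.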

Additional observations from a re-analysis of the deposited data

How the results depend on the processing

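The 10 genes were recomputed under 481 alternatives over 38 gene comparisons, of which 451 kept their direction and side of the threshold, 9 came to pass it, 10 no longer passed and 11 changed sign. Every sign change was in a difference that did not pass. In P2+ against P2-, Lta4h was at -0.01 without a filter and 0 in the fit of all libraries, and -0.02 to 0.05 with 1 library left out, and Alox12 was at -0.12 without the libraries numbered 2. With 1 library left out, Alox5 in P2+ against WT ranged from -0.10 to 0.58, Lta4h from -0.15 to 0.02 in P2+ and in P2- against WT, Alox12 from -0.14 to 0.87 in P2- against WT and Ltc4s from -0.01 to 0.94 in KO against WT. With no minimum fold, 5 of the genes were called in each comparison with WT, and of all genes 4762, 2138, 2101 and 1910 were called in P2+ against P2-, P2+ against WT, P2- against WT and KO against WT, against 1626, 497, 597 and 436 with it. In KO against WT, 3 genes passed in the fit of all libraries and 3 to 5 with 1 library left out.

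The numbers pair P2+ and P2- alone (replicate block: 7 genes called, Alox5 added). In the comparisons with WT the same-numbered libraries correlated at -0.098 to 0.186, and the replicate block gave 468, 525 and 449 called genes, changing no call of the 10. In P2+ against P2-, Cysltr1 has no value once a P2+ library is left out, since the filter then removed it. The order of the 4 groups, added after seeing the data, held for 4 genes under RLE scaling and without TMM, for 4 to 5 with 1 library left out and for 5 without the libraries numbered 2. Low counts limit Alox12, Ltc4s and Cysltr1.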
